A study of Mus musculus with 2 samples.

Results

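The extracellular proteolysis genes described here were 5 matrix metalloproteinases (Mmp3, Mmp9, Mmp10, Mmp13 and Mmp14), 3 tissue inhibitors of metalloproteinases (Timp1, Timp2 and Timp3), urokinase (Plau) and the urokinase receptor (Plaur). They were chosen by name, and all 10 were found among the 54680 loci of the deposited table, each on 1 locus. Expression was measured by RNA sequencing of total RNA from CT26, a mouse colon carcinoma cell line. In the group CT26shSetdb1, a lentivirus delivered a short hairpin RNA against Setdb1, a histone H3 lysine methyltransferase. In the group CT26shCtrl, the lentivirus carried the knockdown vector without that hairpin, and the labels give the genotype of these cells as wild type. Both cultures were grown in medium with serum for 6 days and detached with trypsin before RNA extraction, and the labels call the knockdown cells differentiated, with a changed phenotype by then. Each group had 1 library, so every difference below is between these 2 libraries, with no replicate check and no p-value. The labels name no second hairpin and do not say whether the cells were a clone or a pool.

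Matrix metalloproteinases (MMPs) are zinc-dependent enzymes that cut collagens, laminins, fibronectin and other proteins outside the cell. Most are secreted as inactive proenzymes, and Mmp14 is held in the cell membrane. TIMPs bind the active site of MMPs and block it. Urokinase, held at the cell surface by its receptor, turns plasminogen into plasmin, which cuts matrix proteins and activates several MMP proenzymes. In tumours both systems are known for their part in invasion, and much of the MMP supply often comes from stromal cells.

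Setdb1, the targeted gene, checks the labels. It was at 10.4 FPKM (1340 reads) in CT26shCtrl and 2.47 FPKM (317 reads) in CT26shSetdb1, which is 23.7% of the control level. FPKM, reads scaled by gene length and by sequencing depth, allows levels of different genes to be compared. The deposited values could be turned back into whole reads, 18421604 in CT26shCtrl and 19045830 in CT26shSetdb1. Of the 11 colon epithelial markers, 4 (Epcam, Cdh1, Cldn3 and Cldn4) had 0 reads in both libraries, which allows up to 3 reads each, while Krt18, a simple epithelial keratin, was at 37.7 and 90.0 FPKM. All 3 epithelial markers that reached 1 FPKM were keratins more than 2-fold higher in CT26shSetdb1, and the summed list was at 43.2 and 128 FPKM. Of these keratins, Krt19 (1 and 53 reads) reached 1 FPKM only in CT26shSetdb1. Among all genes that reached 1 FPKM in at least 1 library, 6.81% were at least 2-fold higher there. Markers with reads but below 1 FPKM in both libraries were Krt8 (7 and 8 reads), Cdx2 (5 and 18), Vil1 (1 and 7) and Cldn7 (2 and 0). Of 10 fibroblast markers, 5 reached 1 FPKM. Col1a2 was the highest, at 140 FPKM in CT26shCtrl and 94.1 FPKM in CT26shSetdb1. Col1a1 was at 32.1 and 24.0 FPKM and Pdgfrb at 13.5 and 14.6 FPKM. Col3a1 was at 2.68 and 0.887 FPKM and Pdgfra at 0.501 and 1.77 FPKM. The list summed to 189 and 136 FPKM. Below 1 FPKM were Dcn, with 23 and 33 reads, and Postn, Fap, Lum and Thy1, with 0 reads in both libraries. The part of these lists in the results below was not tested. Leukocyte, endothelial and neutrophil markers, which would mark other sources of MMPs, were at or near 0 apart from 3 genes, given with the Mmp9 result.

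The promoters of the 3 members that lie in 1 gene cluster on chromosome 9 and of Plaur are shown because all 4 hold the 7-letter AP-1 motif TGANTCA, where N is any base. AP-1 is the family of FOS and JUN transcription factors, long known as regulators of MMP and urokinase receptor genes. The sequences are the 250 bases before the RefSeq start on GRCm38.p6, 5′ to 3′, with TGANTCA and, where present, the TATA box letters TATAAA in capitals.
Mmp3, chr9:7445572-7445821, plus strand: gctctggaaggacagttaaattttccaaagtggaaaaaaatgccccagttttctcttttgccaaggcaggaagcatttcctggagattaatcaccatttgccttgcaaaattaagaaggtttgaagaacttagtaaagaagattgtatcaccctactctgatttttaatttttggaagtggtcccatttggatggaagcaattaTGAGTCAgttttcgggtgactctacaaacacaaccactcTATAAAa
Mmp10, chr9:7502092-7502341, plus strand: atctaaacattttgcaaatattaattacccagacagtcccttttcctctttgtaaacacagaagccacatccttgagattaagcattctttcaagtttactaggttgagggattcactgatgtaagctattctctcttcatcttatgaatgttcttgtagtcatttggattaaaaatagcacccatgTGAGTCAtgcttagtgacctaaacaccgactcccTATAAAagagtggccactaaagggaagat
Mmp13, chr9:7272264-7272513, plus strand: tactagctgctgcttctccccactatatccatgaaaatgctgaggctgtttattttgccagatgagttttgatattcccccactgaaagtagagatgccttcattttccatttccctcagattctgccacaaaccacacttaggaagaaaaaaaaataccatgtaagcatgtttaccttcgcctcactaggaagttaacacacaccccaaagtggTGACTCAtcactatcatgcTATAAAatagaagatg
Plaur, chr7:24462233-24462482, plus strand: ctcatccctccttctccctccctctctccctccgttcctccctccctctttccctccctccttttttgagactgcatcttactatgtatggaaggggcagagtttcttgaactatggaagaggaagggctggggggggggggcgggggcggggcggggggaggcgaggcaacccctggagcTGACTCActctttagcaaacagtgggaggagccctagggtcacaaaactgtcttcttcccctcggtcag

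In Mmp3, Mmp10 and Mmp13 the AP-1 motif began 46, 63 and 35 bases before the start. The letters TATAAA followed, with the first letter 39, 34 and 19 bases further on. They thus began 7, 29 and 16 bases before the RefSeq start, and whether they act as a TATA box was not tested. Both motifs together were found in the 250-base windows of 1.21% of the 32851 RefSeq promoters, and the AP-1 motif, with or without TATAAA, in 6.75%. The window of Plaur held the AP-1 motif 69 bases before the start and no TATAAA. Promoter entries were found for 8 of the 10 members, all but Mmp9 and Plau, and both strands were searched for every motif. Such matches describe letters in a window and do not show that a factor binds there.

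The windows of Mmp14 and Timp1 are shown next because these were the members with the highest ratios on the main scale below. Neither held TGANTCA or TATAAA. Here capitals mark AGGAAG, a motif of ETS transcription factors, which was found in 29.5% of all windows and in those of 6 members.
Mmp14, chr14:54431348-54431597, plus strand: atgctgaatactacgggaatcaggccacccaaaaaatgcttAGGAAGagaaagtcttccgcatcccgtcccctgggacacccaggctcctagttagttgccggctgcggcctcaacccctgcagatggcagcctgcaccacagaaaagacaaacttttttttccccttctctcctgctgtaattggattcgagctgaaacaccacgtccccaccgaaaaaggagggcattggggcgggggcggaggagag
Timp1, chrX:20869916-20870165, plus strand: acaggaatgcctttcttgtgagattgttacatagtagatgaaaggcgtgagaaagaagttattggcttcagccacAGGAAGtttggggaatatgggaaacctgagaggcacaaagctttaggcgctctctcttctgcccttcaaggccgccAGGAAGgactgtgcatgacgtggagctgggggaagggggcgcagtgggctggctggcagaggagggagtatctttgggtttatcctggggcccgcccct

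**Figure D1:**
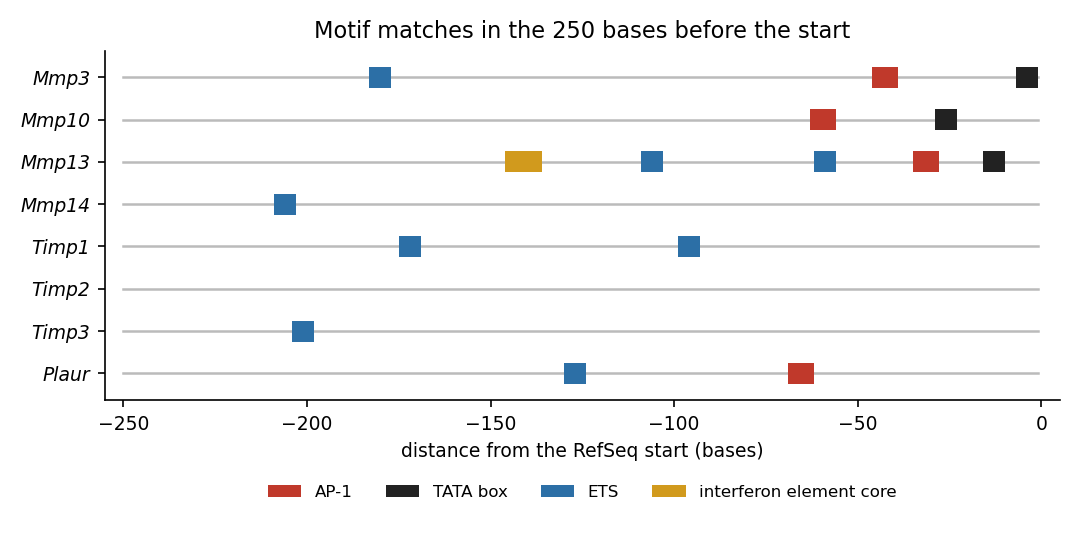
Each line is the window of 250 bases before the RefSeq start of 1 gene, with the distance from the start in bases on the horizontal axis and coloured blocks at motif matches on either strand. The AP-1 block followed by a TATA block is seen in Mmp3, Mmp10 and Mmp13, and the window of Timp2 is empty.

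The core of the interferon-stimulated response element was found in the window of 1 member, Mmp13, and in 2.98% of all windows. Timp3 held 1 match of AGGAAG, and Timp2 held none of the 4 motifs searched.

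Levels of the 10 genes ranged from 310 FPKM down to no reads. In CT26shCtrl the order from high to low was Timp2, Timp1, Plaur, Mmp14, Mmp13, Mmp3, Mmp10, Timp3, Mmp9 and Plau. The first 4 were separated by more than their 95% Poisson counting intervals, and each neighbouring pair from Mmp13 downwards had overlapping intervals. In CT26shSetdb1 the order was Timp2, Timp1, Plaur, Mmp14, Mmp3, Mmp13, Mmp10, Mmp9, and then Timp3 and Plau at 0 reads. There the intervals of Timp2 and Timp1 overlapped, as did those of Mmp3 and Mmp13, of Mmp13 and Mmp10, of Mmp10 and Mmp9, and of Timp3 and Plau. Timp1 and Timp2 thus stood above all member proteases in both libraries, while Timp3 was below 4 of the 5 MMPs in CT26shCtrl and had no reads in CT26shSetdb1.

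**Figure D2:**
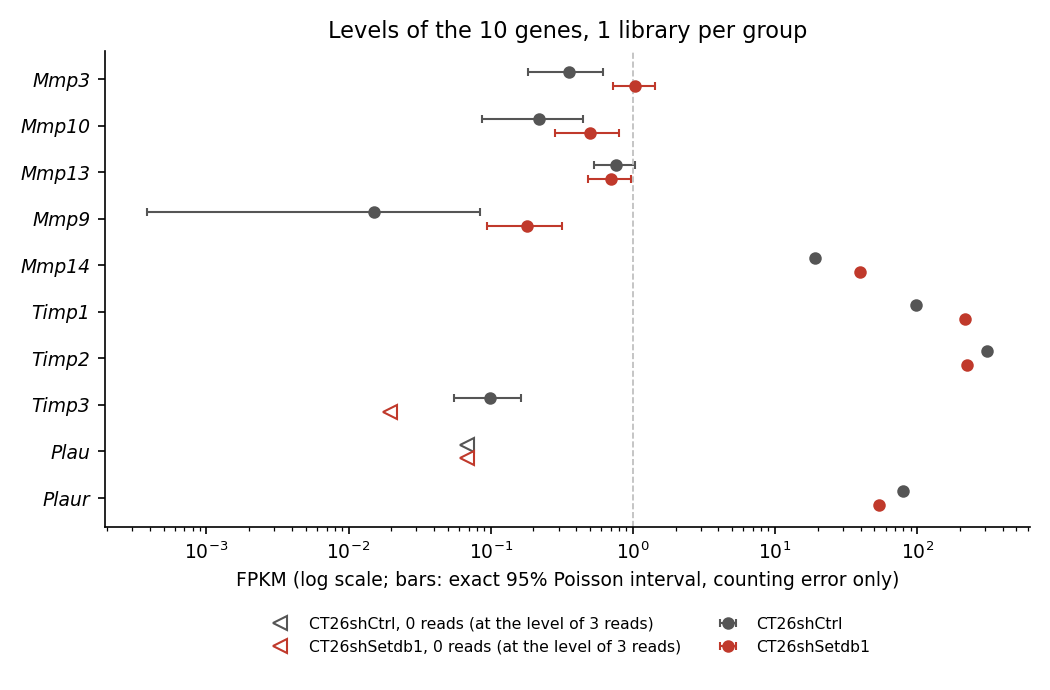
Levels of the 10 genes in FPKM on a log axis, with 1 point per library and bars for the exact 95% Poisson interval, which covers counting error only; the dashed line is at 1 FPKM and open triangles stand for 0 reads, drawn at the level of 3 reads. Timp1 and Mmp14 lie to the right in CT26shSetdb1 and Timp2 and Plaur to the left, while 5 genes stay below 1 FPKM in both libraries.

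Expression ratios below are log2 ratios of (FPKM + 1), CT26shSetdb1 over CT26shCtrl, a scale that understates the change of low genes. Genes entered the comparison when they reached 1 FPKM in at least 1 library, which 10671 loci did, and a gene was called at a 2-fold difference. Of the 10 members, 5 entered (Mmp3, Mmp14, Timp1, Timp2 and Plaur), and Mmp3 entered only through its level in CT26shSetdb1. Among all genes that entered, 6.81% were called higher and 4.85% lower in CT26shSetdb1. The members called were Mmp14 and Timp1, both higher, and none was called lower. Counts this small beside those shares say nothing particular about the members. Read ratios, given with them, are relative to the read total of each library, and their intervals are exact binomial (Clopper-Pearson) 95% intervals. These intervals hold counting error alone: without molecular identifiers, amplified reads are not independent molecules. In bulk RNA, fewer cells of a kind and less RNA per cell cannot be told apart.

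Mmp14 (ENSMUSG00000000957, chromosome 14, 54431612 to 54445364, plus strand, GRCm38) encodes the membrane-bound collagenase that also activates the proenzyme of Mmp2. It was at 19.1 FPKM (2135 reads) in CT26shCtrl and 39.4 FPKM (4404 reads) in CT26shSetdb1. The level was about doubled in the knockdown library, and the counting intervals of the levels did not overlap. Its log2 ratio stood at 1.01. By reads it was 1.995 times as high (interval 1.89 to 2.10). It lay on the 2-fold line: under scaling by own read totals the log2 ratio was 0.96, and under upper-quartile scaling 0.99, both below the call. Among the genes that entered, 6.73% had a higher ratio. Mmp14 made up 93.4% of the summed FPKM of the 5 member MMPs in CT26shCtrl and 94.2% in CT26shSetdb1.

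The stromelysins Mmp3 and Mmp10 cut a broad range of matrix proteins and activate other MMP proenzymes. Mmp3 (ENSMUSG00000043613, chromosome 9, 7445822 to 7455975, plus strand) had 12 reads (0.356 FPKM) in CT26shCtrl and 35 reads (1.04 FPKM) in CT26shSetdb1. Mmp10 (ENSMUSG00000047562, chromosome 9, 7502352 to 7510240, plus strand) had 7 reads (0.217 FPKM) and 16 reads (0.496 FPKM). Both were higher in the knockdown library, at levels near or below 1 FPKM. The read ratio of Mmp3 was 2.82 (1.43 to 5.97) and its log2 ratio of (FPKM + 1) was 0.59. For Mmp10 the read ratio was 2.21 (0.861 to 6.35), an interval that includes 1, and the log2 ratio was 0.30. The transcripts of this pair are close copies in part. Of the 50-base windows of the GENCODE transcripts, 8.39% of those of Mmp3 and 8.37% of those of Mmp10 occur in another gene, and for Mmp10 that gene is Mmp3. How reads from shared stretches were assigned is not given in the sources used here, so the split of reads between them is less certain.

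Mmp13 (ENSMUSG00000050578, chromosome 9, 7272514 to 7283331, plus strand) encodes collagenase 3, which cuts fibrillar collagen. It had 38 reads (0.759 FPKM) in CT26shCtrl and 35 reads (0.699 FPKM) in CT26shSetdb1. The levels were alike within counting error, with 0.891 as the read ratio (0.546 to 1.45) and a log2 ratio of -0.05. Within the libraries, the level of Mmp3 relative to Mmp13 went from 0.469 to 1.48, so that Mmp13 was above Mmp3 in CT26shCtrl and below it in CT26shSetdb1. This relative shift, 3.17-fold in FPKM, does not depend on how the libraries are scaled. The pair was not among the planned results, nor were the pairs with Timp1 or Timp2 below. Its counting interval, from the conditional odds ratio of the reads, was 1.34 to 7.75.

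These 3 genes belong to a cluster of 10 MMP genes over 427 kb of chromosome 9, from 7272514 to 7699585. The other 7 genes, Mmp12, Mmp1b, Mmp1a, Mmp8, Mmp27, Mmp20 and Mmp7, had 0 reads in both libraries. A count of 0 allows up to 3 reads, or between 0.0221 and 0.150 FPKM depending on gene length. The 3 other loci between them, none of them protein-coding, had 0 reads as well. Summed over the cluster there were 57 reads in CT26shCtrl and 86 in CT26shSetdb1, a ratio of 1.46 (1.03 to 2.08). Reads within the cluster thus came from the same 3 genes in both libraries, with Mmp12 and Mmp1b, which lie between Mmp13 and Mmp3, at 0.

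**Figure D3:**
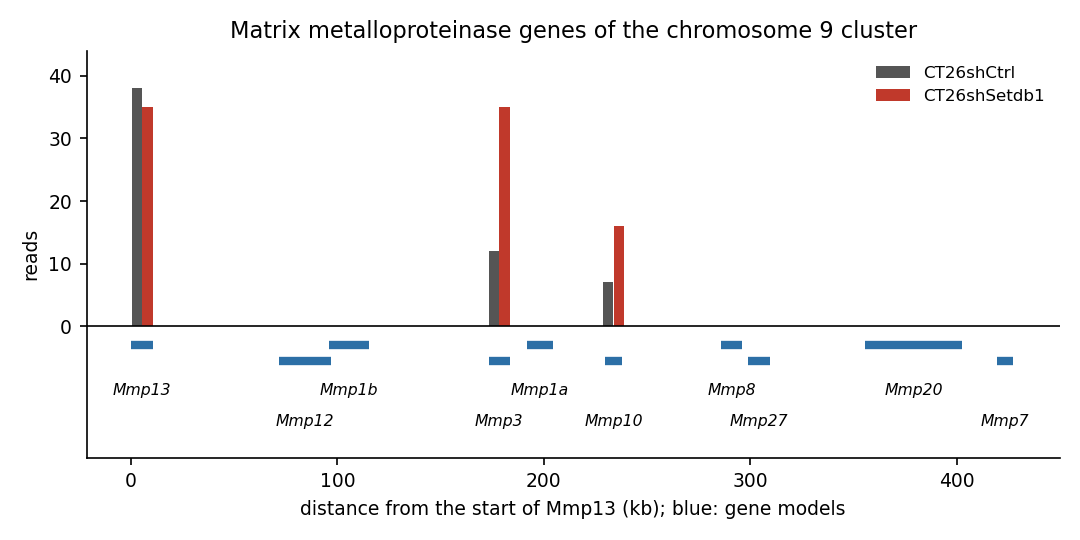
Reads of the 10 MMP genes of the chromosome 9 cluster in CT26shCtrl and CT26shSetdb1, drawn at the distance of each gene from the start of Mmp13 in kb, with gene models as blue bars. Only Mmp13 (38 and 35 reads), Mmp3 (12 and 35) and Mmp10 (7 and 16) have bars above 0.

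Mmp9 (ENSMUSG00000017737, chromosome 2, 164940780 to 164955850, plus strand) encodes gelatinase B, which cuts type IV collagen and denatured collagen and is abundant in neutrophils and macrophages. It had 1 read (0.0151 FPKM) in CT26shCtrl and 12 reads (0.181 FPKM) in CT26shSetdb1. The transcript was near the detection limit in both libraries, and more reads were seen in the knockdown library. The read ratio was 11.6, with a wide interval of 1.72 to 496. Of the 7 neutrophil markers, 4 had 0 reads in both libraries, and the 7 summed to 6 reads in CT26shCtrl and 2 in CT26shSetdb1. Among the 8 macrophage and leukocyte markers, Itgam, Tyrobp, Fcer1g and Adgre1 had 0 reads in both libraries, Ptprc had 0 and 4, and Csf1r 1 and 0. The exceptions were Cd68, a lysosomal membrane protein, from 245 to 2360 reads, and Cd14, from 638 to 1217 reads. The whole list ran from 32.1 to 142 FPKM through these genes, and its part in the Mmp9 reads was not tested. The 7 endothelial markers had 137 and 164 reads in all, 135 and 163 of them from Vwf.

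**Figure D4:**
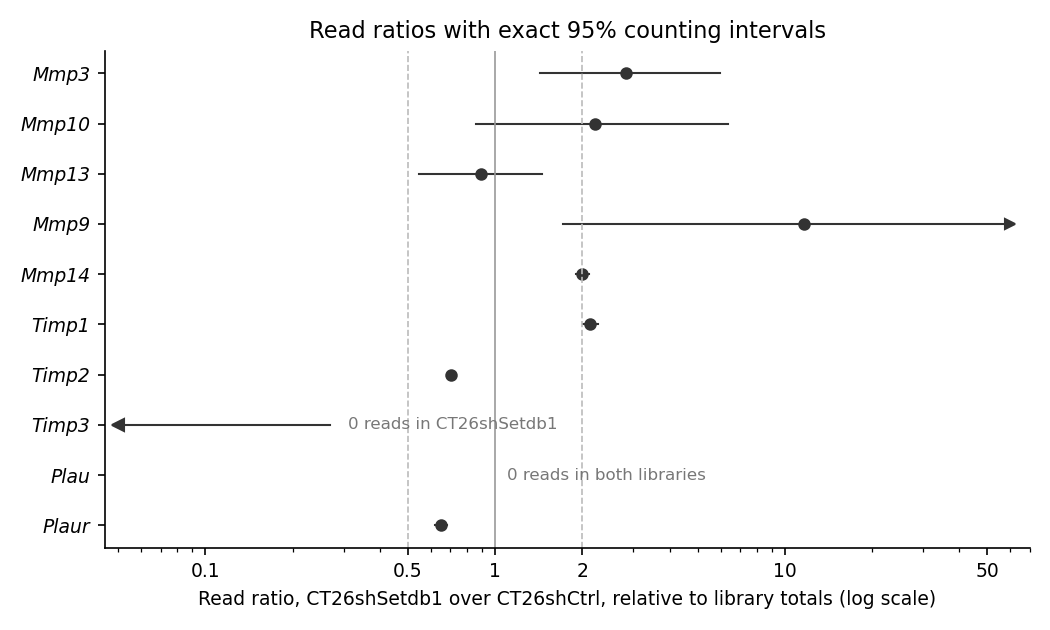
Read ratios of CT26shSetdb1 over CT26shCtrl relative to the library totals on a log axis, with exact 95% counting intervals; the solid line is at 1, dashed lines are at 0.5 and 2, and arrows mark intervals that go past the axis. The intervals of Mmp3, Mmp9, Mmp14 and Timp1 lie above 1, those of Timp2, Timp3 and Plaur below 1, and those of Mmp10 and Mmp13 include 1.

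The abundant inhibitors moved in opposite directions. Timp1 (ENSMUSG00000001131, chromosome X, 20870166 to 20874735, plus strand) encodes a secreted inhibitor that acts on most soluble MMPs and only weakly on Mmp14. It was at 98.1 FPKM (1632 reads) in CT26shCtrl and 216 FPKM (3589 reads) in CT26shSetdb1. The level was more than doubled, at 1.13 on the log2 scale and 2.13 by reads (2.01 to 2.26), and 5.29% of the genes that entered had a higher ratio. Timp2 (ENSMUSG00000017466, chromosome 11, 118301069 to 118355740, minus strand) encodes the inhibitor that also forms a bridge between Mmp14 and the Mmp2 proenzyme at the cell surface. It was at 310 FPKM (22609 reads) in CT26shCtrl and 225 FPKM (16400 reads) in CT26shSetdb1. Timp2 was lower in the knockdown library, by less than 2-fold, at -0.46 on the log2 scale and 0.702 by reads (0.688 to 0.716). It was the gene with the 177th highest FPKM of the table in CT26shCtrl and the 256th in CT26shSetdb1, where Timp1 was the 261st.

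The make-up of the TIMP RNA differed between the libraries. Timp2 made up 75.9% of the summed TIMP FPKM in CT26shCtrl and 51.0% in CT26shSetdb1, and Timp1 made up 24.0% and 49.0%. The level of Timp1 relative to Timp2 within a library was 0.317 in CT26shCtrl and 0.960 in CT26shSetdb1, a shift of 3.03-fold with a counting interval of 2.85 to 3.23. Mmp14 relative to Timp2 was 0.0617 in CT26shCtrl and 0.176 in CT26shSetdb1, a shift of 2.84-fold (2.69 to 3.01). Mmp14 relative to Timp1 was 0.195 and 0.183, and the interval of that shift, 0.867 to 1.01, included 1. Hence Mmp14 and Timp1 kept nearly the same proportion to each other, and both gained on Timp2. Mmp2, the proenzyme of the Mmp14 and Timp2 complex, had only 4 reads in CT26shCtrl and 1 in CT26shSetdb1.

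Sums of RNA levels do not give protein amounts or enzyme activity, which were not measured. Summed over the members, MMPs were at 20.5 FPKM and TIMPs at 408 FPKM in CT26shCtrl, and at 41.9 and 441 FPKM in CT26shSetdb1. The member TIMPs exceeded the member MMPs 19.9-fold in the control library and 10.5-fold in the knockdown library. The ratio of member MMPs to TIMPs was therefore 1.89 times as high in CT26shSetdb1, a log2 shift of 0.92. This rested on which MMPs were summed, and on summing FPKM rather than reads. Over all 23 MMP genes of the table, Mmp11 included, MMPs were at 51.8 and 61.2 FPKM, their ratio to TIMPs was 0.127 and 0.139, and the shift was 1.09-fold. In summed reads the shift over all 23 was 1.73-fold (1.65 to 1.81), and that of the member MMPs 2.49-fold (2.36 to 2.63). Without Mmp14 the log2 shift of the member MMPs in FPKM was 0.73, and it then rested on Mmp3, Mmp9, Mmp10 and Mmp13, which had few reads.

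Timp3 (ENSMUSG00000020044, chromosome 10, 86300372 to 86349506, plus strand) encodes an inhibitor that binds to the matrix and also blocks ADAM proteases. It had 15 reads (0.0983 FPKM) in CT26shCtrl and 0 reads in CT26shSetdb1, which allows up to 0.0197 FPKM. Against a floor of 3 reads, and with the 15 control reads taken as exact, it was 5.17-fold lower in CT26shSetdb1. With counting error in both libraries the upper bound of the read ratio was 0.270, which allows a smaller decrease. Timp3 lies inside Syn3 on the opposite strand and shares 1733 exon bases with it. Syn3 had 6 reads in CT26shCtrl and 0 in CT26shSetdb1, and without a stated strand setting the reads of the pair cannot be told apart. Timp1 lies in the same way inside Syn1, with 15 and 5 reads, but they share 0 exon bases. Cep295nl, which overlaps Timp2 on the same strand, had 61 and 62 reads and also shares 0 exon bases with it.

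The urokinase system was present through the receptor. Plau (ENSMUSG00000021822, chromosome 14, 20836660 to 20843385, plus strand) had 0 reads in both libraries, which allows up to 0.0677 FPKM in each. Plaur (ENSMUSG00000046223, chromosome 7, 24462484 to 24475968, plus strand), which encodes the lipid-anchored receptor, was at 79.7 FPKM (3909 reads) in CT26shCtrl and 53.6 FPKM (2628 reads) in CT26shSetdb1. The receptor was thus well expressed in both libraries, and its ligand was not detected at this depth. Plaur was lower in the knockdown library by less than 2-fold, at -0.56 on the log2 scale and 0.650 by reads (0.619 to 0.683).

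The rest of the plasminogen system was described from 12 genes, of which 6 reached 1 FPKM. Of these, 1 was called higher and none lower, and the median log2 ratio was 0.69, against -0.00039 over all genes that entered. For this list and those below, the shares called over all genes that entered were 6.81% higher and 4.85% lower. Plat, tissue plasminogen activator, had the highest ratio and was the gene called. It went from 150 to 787 reads (1.28 and 6.73 FPKM), a log2 ratio of 1.76. Plasminogen itself (Plg) had 1 read in CT26shCtrl and 0 in CT26shSetdb1. Anxa2, which with S100a10 forms a surface receptor for plasminogen and its tissue activator, had the highest level, at 369 and 714 FPKM, and a log2 ratio of 0.95. The lowest ratio was that of Lrp1, an endocytic receptor that clears protease and inhibitor complexes, at 89.7 and 53.4 FPKM with a log2 ratio of -0.74. Serpine2 and Serpina5, inhibitors of plasminogen activators, had 0 reads in both libraries.

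Other MMPs were mostly silent. Of 18 genes, 11 had 0 reads in both libraries and 3 reached 1 FPKM, and none of the 3 was called. Their median log2 ratio was -0.22. Mmp11, stromelysin-3, had the highest level and the lowest ratio, at 24.0 FPKM in CT26shCtrl and 13.2 FPKM in CT26shSetdb1, with a log2 ratio of -0.81. It was above Mmp14 in the control library and below it in the knockdown library. The highest ratio was that of Mmp28 at -0.14, from 169 to 146 reads. Mmp11 overlaps Chchd10 on the opposite strand, which had 47 and 4 reads.

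Among 9 other inhibitors, activators and partners of MMPs, 8 reached 1 FPKM, 2 were called higher and 1 lower, and the median log2 ratio was 0.44. Bsg, the surface glycoprotein basigin known as an inducer of MMPs, had the highest level and ratio, at 367 FPKM in CT26shCtrl and 1150 FPKM in CT26shSetdb1, with a log2 ratio of 1.65. Of the matrix glycoproteins that bind MMPs, Thbs1 had the lowest ratio, from 1366 to 319 reads and a log2 ratio of -1.77. Its relative Thbs2, named after its values were seen, went the other way, with 1699 and 4741 reads and 1.41 on the log2 scale. Timp4 had 0 and 1 read, so that Timp1 and Timp2 supplied nearly all TIMP reads in both libraries.

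Of 19 ADAM, ADAMTS and related metalloproteinases, 9 reached 1 FPKM, 2 were called higher and none lower, with a median log2 ratio of 0.24. Both genes called, Adam8 (0.334 and 4.87 FPKM) and Adamts4 (0.333 and 2.46 FPKM), entered only through their level in CT26shSetdb1. Their count is therefore no sign of a direction of the list. Adam8, a membrane protease of leukocytes and tumour cells, had the highest ratio, from 29 to 423 reads, a log2 ratio of 2.14. Adam15 had the highest level at 22.2 and 43.0 FPKM, with a log2 ratio of 0.92, and Adam9 the lowest ratio at -0.53.

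RNA of several substrates of these enzymes was abundant, and none of the 16 matrix genes of 20 that reached 1 FPKM was called in either direction. Their median log2 ratio was 0.36, with 12 above 0 and 4 below. Over all 10671 genes that entered, 5293 were above 0 and 5336 below. Spp1, osteopontin, which several MMPs cut, had the highest level at 442 and 799 FPKM. The highest ratio was that of Col4a2 at 0.98 and the lowest that of Col3a1 at -0.96 (0.320 by reads). Col4a1 and Col4a2 share a promoter region and overlap on opposite strands.

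All 15 AP-1, ETS and RUNX genes listed reached 1 FPKM, 3 were called higher and 2 lower, and the median log2 ratio was 0.45. Junb had the highest ratio, at 62.4 FPKM in CT26shCtrl and 206 FPKM in CT26shSetdb1, a log2 ratio of 1.71. It had the highest level of the list in CT26shSetdb1, while in CT26shCtrl that was Fosl1 at 118 FPKM. Jun and Fosb, the other genes called higher, named after their values were seen, had log2 ratios of 1.70 and 1.22. All 7 FOS and JUN genes, a subset looked at after the values were seen, had ratios above 0, from 0.43 to 1.71. Of all 10671 genes that entered, 5293 had ratios above 0 and 5336 below. As the subset was picked from these values, its count is a description only. Of the members with the AP-1 motif shown above, Mmp3 had a read ratio of 2.82 (1.43 to 5.97) and Plaur of 0.650 (0.619 to 0.683). Those of Mmp10, 2.21 (0.861 to 6.35), and Mmp13, 0.891 (0.546 to 1.45), had intervals that include 1. A link of the FOS and JUN levels to these members was not tested. Etv5 and, named after its values were seen, Ets2 of the ETS family were called lower, with log2 ratios of -1.61 and -1.23. Junb overlaps Prdx2, which had 6370 and 6608 reads.

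**Figure D5:**
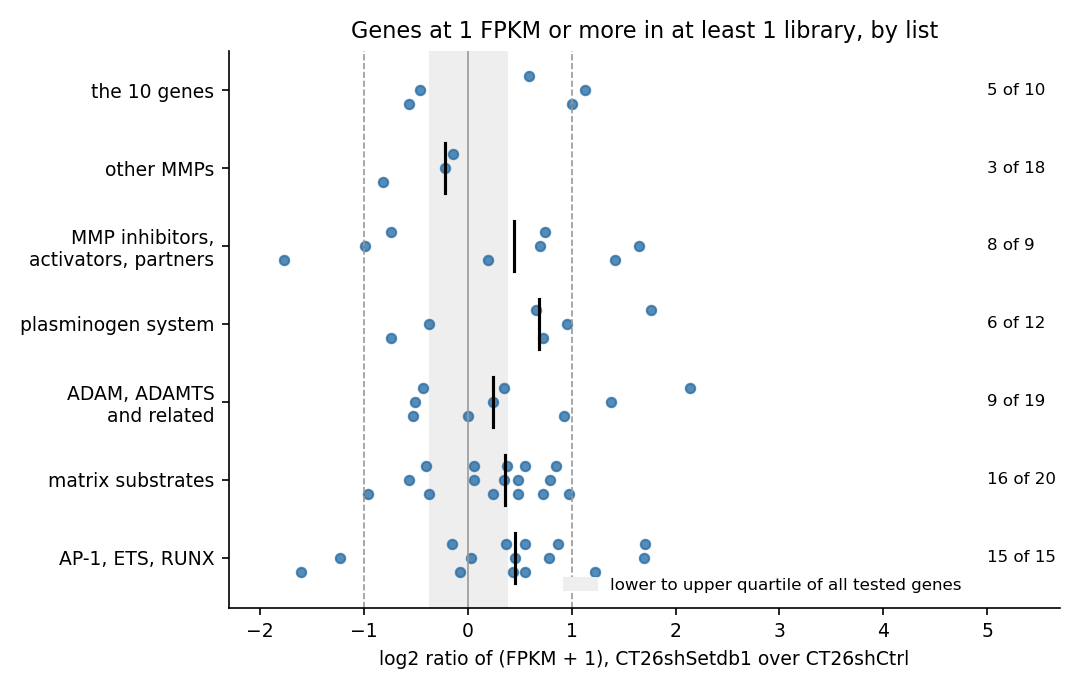
Each point is 1 gene that reached 1 FPKM in at least 1 library, placed by its log2 ratio of (FPKM + 1), with 1 row per list, a black bar at the median of each list other than the 10 genes, and the number of genes shown of those listed at the right. Dashed lines mark 2-fold and the grey band runs from the lower to the upper quartile of all genes that entered (-0.36 to 0.38), and Adam8 is the point at 2.14 among the ADAM genes.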

How the data were processed

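RNA sequencing values of 2 libraries, 1 per group, were analysed. The authors deposited FPKM values with gene model length and position, per the file headers. The submitters' processing notes name CASAVA, HISAT2, featureCounts 1.5.0-p3 and GRCm38, without role or order, and the strand setting is not given in the sources used here. Groups came from the labelled genotype and columns from the library names. All 10 members had the start and end of GENCODE M21 on GRCm38. Multiplying each FPKM value by its gene length and dividing by 1 shared step gave reads: 100% of values above 0 came out whole within 0.01, and both libraries had been divided by 1 depth of 18731117 reads. Log2 ratios used a pseudocount of 1, a filter of 1 FPKM in at least 1 library and a 2-fold threshold. The members and lists were chosen with earlier results of these data known. Named were all members, the genes of the chromosome 9 cluster, loci overlapping members, and of each list the highest level and the highest and lowest ratio; any other list gene was named after its values were seen. Of 33 list genes examined for it, 14 overlap another locus with reads. Reads recovery, calls and intervals were tested on simulated reads that held counting error only. The planted changes were larger than 2-fold and lay in genes with more reads than the low members. Calls of changes near 2-fold or in genes with few reads were therefore not tested. Alternatives were other pseudocounts, scalings, filters and thresholds. Tools were scipy 1.17.1, numpy 2.4.6, pandas 2.3.3 and matplotlib 3.10.9 under Python 3.11.15. Promoters came from RefSeq on GRCm38.p6. Protein sequences were not used here, and 1 gene was removed from the plasminogen list, with its values known, and is not reported here.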

Additional observations from a re-analysis of the deposited data

How the results depend on the processing

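Of 127 alternative values of 21 results, 99 moved by no more than the size of counting error (counts: by 1.5 times at most), 28 moved further and 0 reversed. Among the 99 were log2 ratios of members with few reads that changed much with a pseudocount of 0.1. Mmp3 went from 0.59 to 1.32, Mmp9 from 0.22 to 1.29, Mmp10 from 0.30 to 0.91 and Timp3 from -0.14 to -0.99. The read ratio without pseudocount and the sum over all MMPs were chosen after seeing the data. Ratios between single members within a library were not among the planned results. On the read ratio scale Mmp9 was at 3.54 (log2) and Timp2 at -0.51, with 4 members (Mmp3, Mmp9, Mmp10 and Timp1) at least 2-fold higher and 1 (Timp3) lower, since no pseudocount or filter holds low genes back. The share of all genes past 2-fold on that scale was not computed, so these counts say nothing particular about the members. The counting interval of Mmp10, 0.861 to 6.35, included 1. Timp2 was also at -0.51 with own read totals. The members called higher were 1 under upper-quartile scaling and 1 with own read totals, as Mmp14 lies on the line, and 0 at 4-fold. With a pseudocount of 0.1 and at 1.5-fold they were 3 each, Mmp3 included. None was called lower in these settings. Over all genes the counts higher and lower were 703 and 540 under upper-quartile scaling and 678 and 573 with own read totals. They were 1134 and 870 with a pseudocount of 0.1, 1804 and 1523 at 1.5-fold, and 116 and 56 at 4-fold. The log2 shift of MMPs to TIMPs was 1.32 with summed reads, which weight long genes more, 0.73 without Mmp14, and 0.13 over all 23 MMP genes in FPKM, which adds Mmp11. In summed reads the shift over all 23 was 1.73-fold. Without a filter, medians were 0 for plasminogen and ADAM genes, 0.16 for substrates and 0.19 for MMP inhibitors, activators and partners, as silent genes were added. With the filter at 5 FPKM they were 0.00 for ADAM genes, -0.81 for other MMPs (Mmp11 alone) and 0.72 for MMP partners. Means in place of medians gave 0.50 for plasminogen genes, 0.23 for substrates and 0.15 for MMP partners, and a pseudocount of 0.1 gave 0.52 for MMP partners. For the other changes the cause was not tested.

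No paired analysis was possible because there was 1 library per group, and for the same reason none was left out in turn. Depth limits Mmp3, Mmp9, Mmp10, Mmp13 and Timp3, which rest on at most 38 reads in either library.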
